A study of Mus musculus with 6 samples.

Results

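Transcripts that mark Kupffer cells and other macrophages were followed in RNA-seq of whole mouse liver. The genes are Timd4, Adgre1, Clec4f, Cd5l, Csf1r, Cd163, Cd68, Ccr2, Lyz2 and Spp1, found by symbol in the deposited tables. All 10 had a row, of 24927 rows in all, and 7 of them passed the filter of at least 1 FPKM (fragments counted on a gene, corrected for its length and for sequencing depth) in at least 3 of 6 libraries. The study held 3 livers labelled wild type and 3 labelled Cdkl3-/-, a knockout of a kinase of the cyclin-dependent kinase-like family, called the WT-labelled and KO-labelled libraries below. Every library was labelled as C57BL/6, male and 10 months of age, and the mice were kept on chow. The design text places the deletion in the liver, and the labels carry no Cre driver, promoter or cell type for it. Whether each library is a separate mouse is not spelled out in the labels, and p-values therefore speak only of how these libraries vary.

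Kupffer cells are the macrophages that live in the liver sinusoids, where they take up dying cells, bacteria, old red cells and lipoproteins from portal blood. They are seeded before birth, renew themselves under signals through the CSF1 receptor, and keep their identity through transcription factors that include MAF family proteins, the liver X receptor and inhibitors of DNA binding. When they are lost, CCR2-bearing monocytes from the blood enter the liver and take on part of the Kupffer cell programme, with TIM4, the product of Timd4, gained late. Timd4 and Clec4f are therefore read as markers of resident Kupffer cells, Ccr2 and Lyz2 as markers of monocytes and their progeny, and Adgre1, Csf1r and Cd68 as markers of macrophages in general.

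Timd4 was called lower in the KO-labelled libraries, while Clec4f was under the filter, with 0 reads in the WT-labelled libraries and 45 in the KO-labelled ones. So few reads cannot show whether Clec4f behaved like Timd4. The promoters of Timd4 and Clec4f are shown as the pair of markers nearest to resident Kupffer cells. Both windows run from 250 bases before to 50 bases after the gene start (RefSeq, GRCm38.p6). Timd4 lies at chr11:46810549-46810848 on the plus strand and Clec4f at chr6:83656067-83656366 on the minus strand. Capitals mark TGCTGA, the half-site of MAF proteins, and AGGTCA, a half-site of nuclear receptors, each searched on both strands, so that the reverse complement is also in capitals.
Timd4 promoter: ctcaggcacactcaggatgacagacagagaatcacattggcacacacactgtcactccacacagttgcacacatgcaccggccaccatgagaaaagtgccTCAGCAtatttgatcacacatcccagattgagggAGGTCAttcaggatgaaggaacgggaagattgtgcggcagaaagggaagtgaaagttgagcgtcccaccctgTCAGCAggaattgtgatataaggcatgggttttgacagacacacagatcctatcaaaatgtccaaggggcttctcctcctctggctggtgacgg
Clec4f promoter: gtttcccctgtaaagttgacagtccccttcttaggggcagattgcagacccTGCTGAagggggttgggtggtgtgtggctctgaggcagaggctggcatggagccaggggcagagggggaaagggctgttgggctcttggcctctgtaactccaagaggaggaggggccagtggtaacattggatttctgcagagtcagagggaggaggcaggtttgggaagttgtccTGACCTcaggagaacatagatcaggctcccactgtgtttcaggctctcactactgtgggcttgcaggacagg
Both windows held both letter strings. In Timd4, TGCTGA began at -150 and at -44 from the gene start and AGGTCA at -116. In Clec4f, TGCTGA began at -199 and AGGTCA at -22. TGCTGA was present in 19.5% and AGGTCA in 16.3% of 32851 promoter windows of the same length, and among the 9 windows found for 8 of the markers in 4 and 2. These matches are descriptions of letters and not of bound sites.

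The other pair of sequences shows the range of base composition among the markers, because the level at which a marker was listed went with it. Ccr2 had the lowest GC content over its transcripts, 39.2%, and Cd68 had 53.6%, near the top of a range that ended at 54.2% in Csf1r. The first 120 bases of each coding sequence are given (GENCODE M21, GRCm38), with every run of 4 or more G or C bases in capitals.
Ccr2 coding start: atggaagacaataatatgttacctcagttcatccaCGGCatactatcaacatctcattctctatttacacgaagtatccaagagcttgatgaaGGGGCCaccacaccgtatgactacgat
Cd68 coding start: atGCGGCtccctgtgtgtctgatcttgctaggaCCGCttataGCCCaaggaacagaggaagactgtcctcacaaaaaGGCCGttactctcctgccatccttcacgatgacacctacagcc
Over the whole coding sequence, Ccr2 had 12 such runs in 1119 bases (1.07 per 100 bases) and Cd68 had 27 in 1005 bases (2.69 per 100 bases). In the WT-labelled libraries, Ccr2 gave 1825 reads in all and Cd68 gave 0. These reads are not corrected for exon length, which was 6760 bases in Ccr2 and 1257 in Cd68. Other markers did not follow the density of such runs. Cd5l, at 2.65 per 100 bases, gave 823 reads, while Lyz2 and Adgre1, both at 1.58, gave 15 and 1927.

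Several features of the libraries bear on every value that follows. The deposited FPKM values are whole multiples of the value of 1 read, from which depths of 20460000 to 48610000 counted reads in the WT-labelled libraries and 24530000 to 39550000 in the KO-labelled ones were recovered. Mitochondrial transcripts took 70.47% to 73.88% of FPKM in the first group and 63.17% to 70.11% in the second. Cdkl3 itself was listed at 0.166, 0.0883 and 0.118 FPKM in the WT-labelled libraries and at 0.0761, 0.146 and 0.196 FPKM in the KO-labelled ones, so it was not lower under the knockout label. Xist, the RNA of the inactive X chromosome, was at 192 to 292 FPKM in the WT-labelled libraries and at most 0.0273 FPKM in the KO-labelled ones. Ddx3y, a Y-linked gene, was at most 0.207 FPKM in the first group and at least 38.2 FPKM in the second, although all libraries were labelled male. The labelled genotype and these sex-linked transcripts split the libraries in the same way and cannot be told apart. Kap, a transcript of the kidney tubule, was at 5264, 4.18 and 5.72 FPKM in knockout replicates 1, 2 and 3 and at most 0.0785 FPKM in the WT-labelled libraries. Gapdh, an enzyme of glycolysis in every cell, was listed at 0, 0 and 0.0237 FPKM in the WT-labelled libraries, so a 0 in these tables is given only as a listed value.

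Ordered by their mean in the WT-labelled libraries, the markers ran from Spp1 through Timd4, Adgre1, Cd5l, Ccr2, Cd163 and Lyz2 to Clec4f, Csf1r and Cd68. Spp1, which encodes osteopontin, alone made up 71.2% to 77.7% of the summed FPKM of the 10 markers in those libraries and 63.9% to 76.7% in the KO-labelled ones. Timd4 and Adgre1 stood next at 6.98 ± 0.674 and 5.63 ± 0.347 FPKM (SD, n = 3), and each library of Timd4 was above each library of Adgre1. Cd5l, Ccr2 and Cd163 followed at 3.79 ± 2.70, 2.48 ± 0.632 and 1.44 ± 1.09 FPKM (SD, n = 3), and these neighbours overlapped within their spread, as did Adgre1 and Cd5l. Clec4f, Csf1r and Cd68 were listed at 0 in each of these 3 libraries.

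**Figure D1:**
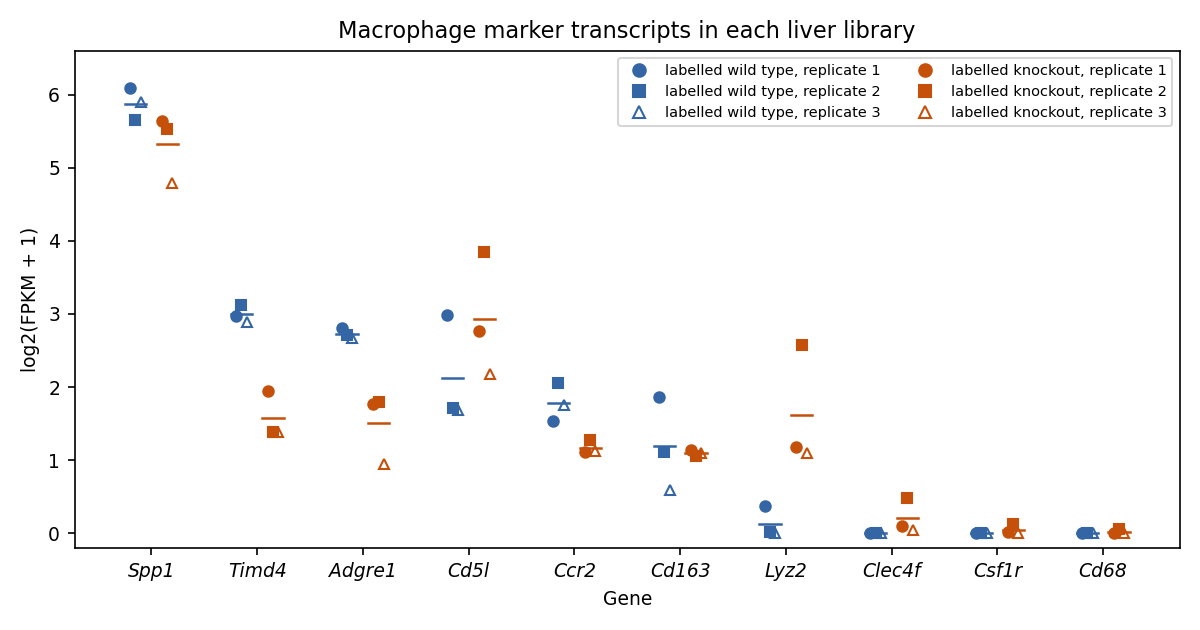
Level of each macrophage marker in each library, as log2(FPKM + 1), with the WT-labelled libraries in blue and the KO-labelled ones in orange and a line at each group's mean (n = 3). Timd4, Adgre1 and Ccr2 are lower in each KO-labelled library, Lyz2 is higher in each, and Clec4f, Csf1r and Cd68 lie at or near 0.

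Timd4, Adgre1 and Ccr2 were lower in the KO-labelled libraries and Lyz2 was higher, while Spp1, Cd5l and Cd163 did not pass the test. Differences were fitted by limma on log2(FPKM + 1) over 5673 genes, as labelled knockout minus labelled wild type, with a Benjamini-Hochberg adjusted p under 0.05 as the threshold. Of all tested genes 20.4% were called lower and 33.7% higher in the same fit, against 3 and 1 of the 7 tested markers. Lyz2 was tested only because its KO-labelled libraries reached the filter, so its direction was fixed in advance. Groups that did not overlap, with every WT-labelled library higher, made up 25.8% of tested genes and 4 of the markers (Timd4, Adgre1, Ccr2 and Spp1), and groups with every KO-labelled library higher 38.0% and 1 (Lyz2). The median difference of the tested markers was -0.56 on the log2 scale, and that of all tested genes 0.12. Centring each library on its median moved the latter to -0.16 and the calls over all genes from 1911 higher and 1157 lower to 1443 higher and 1891 lower. Under that centring 4 markers were called lower, Timd4, Adgre1, Ccr2 and Spp1, and Lyz2 was still called higher.

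Timd4 encodes TIM4, a receptor for phosphatidylserine by which resident macrophages bind dying cells. Its level was 6.81, 7.73 and 6.41 FPKM in the WT-labelled libraries and 2.85, 1.62 and 1.60 FPKM in the KO-labelled ones. All 3 KO-labelled libraries were below all 3 WT-labelled ones, with 384 reads in all against 1634. The wild type mean was 3.45 times the mean of 2.02 ± 0.717 FPKM (SD, n = 3) in the KO-labelled libraries. Timd4 fell by 1.42 on the log2 scale (SE 0.20, 95% interval -1.88 to -0.96, limma adjusted p = 0.00081). Taken alone, its FPKM values gave p = 0.1 by a two-sided exact permutation test, the smallest p possible with 3 against 3 libraries, as did Adgre1, Ccr2, Lyz2, Spp1 and Clec4f.

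Adgre1 encodes F4/80, an adhesion G protein-coupled receptor used to stain mouse tissue macrophages. Its values were 6.02, 5.53 and 5.34 FPKM in the WT-labelled libraries and 2.42, 2.46 and 0.925 FPKM in the KO-labelled ones. The groups did not overlap, and knockout replicate 3 was the lowest, with 80 of the 587 reads in its group. Adgre1 fell by 1.23 on the log2 scale (SE 0.24, 95% interval -1.79 to -0.67, limma adjusted p = 0.0038), and its wild type mean was 2.91 times the knockout mean. Timd4 and Adgre1 kept their call in each of the 18 other settings in which they were tested. The ratio of Timd4 to Adgre1 was 1.13, 1.40 and 1.2 in the WT-labelled libraries and 1.18, 0.658 and 1.73 in the KO-labelled ones, so the pair did not keep a fixed proportion under the knockout label. In liver pieces, fewer cells of a type and less RNA per cell cannot be told apart.

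The 5 tested genes whose log2(FPKM + 1) followed Adgre1 most closely over the 6 libraries were Med30 (Pearson r = 0.99) and Clec1b, Gm32687, Atp6v0d2 and Ifi44 (r = 0.98 each). Clec1b, a C-type lectin receptor that Kupffer cells share with platelets, was the only one of them on a macrophage list. The 6 points are 2 groups of 3, so a gene that splits the groups in the same direction can give a high r. In all, 45 tested genes reached an r over 0.95 with Adgre1.

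Ccr2 encodes the receptor by which monocytes follow CCL2 out of the bone marrow and into tissue. The values of Ccr2 were 1.89, 3.15 and 2.39 FPKM in the WT-labelled libraries and 1.16, 1.43 and 1.17 FPKM in the KO-labelled ones. The groups did not overlap, and the wild type mean was 1.97 times the knockout mean of 1.26 ± 0.15 FPKM (SD, n = 3). Ccr2 fell by 0.61 on the log2 scale (SE 0.17, limma adjusted p = 0.018), within a range of adjusted p up to 0.27 over the other settings. The call was lost without wild type replicate 2 (-0.47, adjusted p = 0.056), wild type replicate 3 (-0.62, adjusted p = 0.051) or knockout replicate 3 (-0.58, adjusted p = 0.056). It was also lost when a loess trend on GC content and exon length was removed from each library (-0.26, adjusted p = 0.27).

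Lyz2 encodes lysozyme M, an enzyme of monocytes, macrophages and neutrophils that cuts bacterial cell walls. Its values were 0.295, 0.0156 and 0 FPKM in the WT-labelled libraries and 1.27, 4.98 and 1.14 FPKM in the KO-labelled ones. Each KO-labelled library was higher, with 340 reads in all against 15, and knockout replicate 2 alone gave 259 of them. Lyz2 reached the filter through the KO-labelled libraries alone, and it rose by 1.49 on the log2 scale (SE 0.38, limma adjusted p = 0.014). Without wild type replicate 3 the difference was 1.42 (adjusted p = 0.054), and with the trend on GC content and length removed it was 0.48 (adjusted p = 0.23). The coding sequence of its neighbour Lyz1 has the same length and is identical in 422 of 444 bases (95%), in runs of up to 118 bases, so reads could be split between them. Lyz1 was listed at 0 in each WT-labelled library and at 0.0646, 0.120 and 0.563 FPKM in the KO-labelled ones.

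Spp1 encodes osteopontin, a secreted ligand of integrins and CD44 that is made by bile duct cells and stellate cells as well as by macrophages of injured liver. Its row stood at 67.0, 49.1 and 58.7 FPKM in the WT-labelled libraries and at 48.8, 45.1 and 26.7 FPKM in the KO-labelled ones. The groups did not overlap, but wild type replicate 2 and knockout replicate 1 nearly met. The difference was -0.56 on the log2 scale (SE 0.25, 95% interval -1.14 to 0.02, limma adjusted p = 0.094) and so did not pass. Knockout replicate 3 was the lowest library, and knockout replicate 1 held most of the Kap reads. The part of kidney transcripts in the values of Spp1 was not tested. With each library left out, the difference ran from -0.72 without knockout replicate 1 (adjusted p = 0.054) to -0.30 without knockout replicate 3 (adjusted p = 0.29). It passed with median centring (-0.84, adjusted p = 0.021), with FPKM rescaled to the total outside mitochondrial transcripts (-0.93, adjusted p = 0.037) and with the GC and length trend removed (-1.22, adjusted p = 0.0046). Of 10 ligands and receptors of the markers 3 were tested, and 1 passed on the deposited scale and 2 with the trend removed. The first was Cd44, a receptor of osteopontin, which fell from 14.8 ± 3.74 to 2.95 ± 0.848 FPKM (SD, n = 3; -1.99 on the log2 scale, limma adjusted p = 0.00045), and no KO-labelled library came above 3.92 FPKM.

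Cd5l and Cd163, markers tied to clearance, overlapped between the groups. Cd5l encodes a secreted scavenger protein that tissue macrophages make under control of the liver X receptor. It was listed at 6.91, 2.26 and 2.21 FPKM in the WT-labelled libraries and at 5.83, 13.4 and 3.51 FPKM in the KO-labelled ones. Wild type replicate 1 and knockout replicate 2 stood high within their groups, and the difference of 0.81 on the log2 scale (SE 0.51, 95% interval -0.39 to 2.00, limma adjusted p = 0.22) did not pass. It was 0.35 without knockout replicate 2, and 1.24 without wild type replicate 1 (adjusted p = 0.55 and 0.063). With the GC and length trend removed it was -0.13 (adjusted p = 0.82).

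Cd163 encodes the receptor that takes up haptoglobin bound to haemoglobin. Its values were 2.64, 1.16 and 0.510 FPKM in the WT-labelled libraries and 1.19, 1.09 and 1.14 FPKM in the KO-labelled ones. The knockout values lay inside the wild type range, and the difference was -0.09 on the log2 scale (SE 0.29, 95% interval -0.76 to 0.57, limma adjusted p = 0.81). Without wild type replicate 1, the highest library, it was 0.24 (adjusted p = 0.29). Hp, the haptoglobin gene, measured 3.18 ± 0.700 and 3.62 ± 2.34 FPKM (SD, n = 3) in the groups labelled wild type and knockout, and passed as lower with the GC and length trend removed (-1.0, adjusted p = 0.033) but not on the deposited scale (0.04, limma adjusted p = 0.94).

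**Figure D2:**
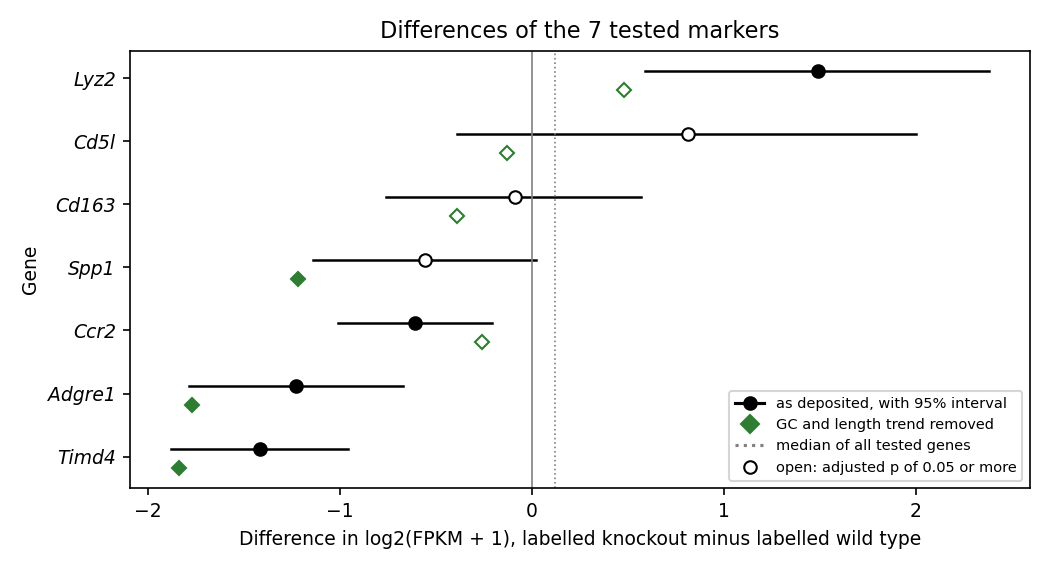
Difference of each of the 7 tested markers, labelled knockout minus labelled wild type, in log2(FPKM + 1): black points with 95% intervals are from the deposited values, green diamonds from values with the GC and length trend removed, open symbols have an adjusted p of 0.05 or more, and the dotted line is the median of all tested genes. Timd4 and Adgre1 lie below 0 and pass on both scales, Ccr2 and Lyz2 pass only on the deposited scale, and Spp1 only with the trend removed.

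Knockout replicate 2 had the highest Cd5l and wild type replicate 1 the next, and the same order held for Vsig4, the complement receptor of Kupffer cells. Vsig4 was named after its values were seen. It was listed at 20.3, 9.22 and 8.30 FPKM in the WT-labelled libraries and at 15.6, 38.2 and 7.49 FPKM in the KO-labelled ones, and its difference did not pass (0.48 on the log2 scale, SE 0.58, limma adjusted p = 0.52). The ratio of Cd5l to Vsig4 was 0.341, 0.246 and 0.266 in the WT-labelled libraries and 0.375, 0.349 and 0.469 in the KO-labelled ones. The ratio of Cd5l to Timd4 was 1.02, 0.293 and 0.345 in the first group and 2.04, 8.25 and 2.19 in the second. Knockout replicate 2 thus had the highest Cd5l, Vsig4, Lyz2 and Clec4f of the 6 libraries together with a low Timd4.

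**Figure D3:**
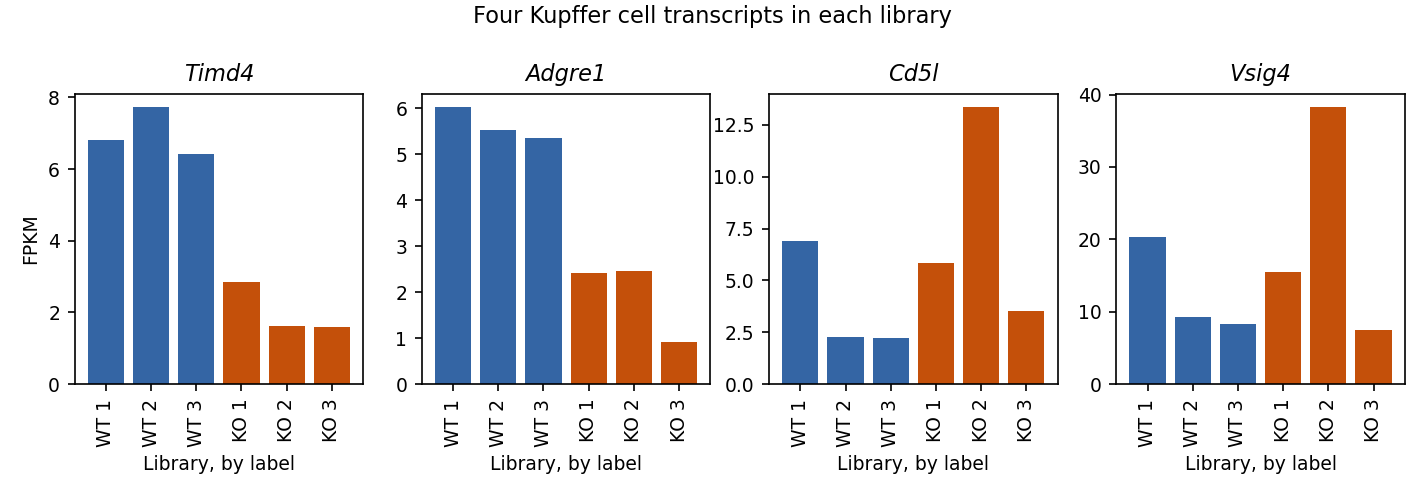
FPKM of Timd4, Adgre1, Cd5l and Vsig4 in each library (WT, labelled wild type; KO, labelled knockout; one bar per library, axes from 0). Timd4 and Adgre1 are lower in each KO-labelled library, whereas Cd5l and Vsig4 are highest in knockout replicate 2 and second highest in wild type replicate 1.

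Clec4f, Csf1r and Cd68 were under the filter, and their values come to very few reads. Clec4f encodes a galactose-binding lectin used to mark Kupffer cells in mice, and it was listed at 0 in each WT-labelled library. In the KO-labelled libraries it was listed at 0.0660, 0.399 and 0.0303 FPKM, from 4, 39 and 2 reads. Each KO-labelled library was above 0, but knockout replicate 2 held most of the reads. In the fit without a filter the difference was 0.21 on the log2 scale (SE 0.11, limma adjusted p = 0.26).

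Csf1r encodes the receptor for CSF1 and IL34 on which macrophages depend. It was listed at 0 in each WT-labelled library and at 0.0141, 0.0876 and 0 FPKM in the KO-labelled ones, from 2, 20 and 0 reads. Cd68, a sialomucin of lysosomes, was listed above 0 only in knockout replicate 2, at 0.0402 FPKM from 2 reads. Neither passed without the filter (limma adjusted p = 0.38 and 0.51). Timd4 and Adgre1 took 1634 and 1927 reads in the same WT-labelled libraries in which Clec4f, Csf1r and Cd68 were listed at 0. Of 14227 protein-coding rows, 21.4% were listed at 0 in each WT-labelled library.

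The 5 tested genes nearest to Clec4f over the 6 libraries were Pstpip2, Fabp7 and Gm22571 (Pearson r = 0.95 each), Rfesd (r = 0.94) and Tmsb4x (r = 0.93). Clec4f stood at or near 0 in the libraries other than knockout replicate 2, so that library carries most weight in these values of r.

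The level of a marker and its difference both went with GC content. Ccr2, Timd4, Spp1, Cd163, Adgre1 and Lyz2 had 39.2% to 48.3% GC, and 5 of these 6 had a wild type mean of at least 1 FPKM, with none listed at 0 in all 3 libraries. Cd5l, Clec4f, Cd68 and Csf1r had 51.5% to 54.2% GC, and 1 of these 4, Cd5l, had a mean of at least 1 FPKM, while the other 3 were listed at 0. Spearman's rho between GC content and the wild type level was -0.75 over the 10 markers, and between GC content and the difference 0.68 over the 7 tested. Lyz2 is among those 7 with a direction fixed by the filter, and rho without Lyz2 was not computed. These correlations are across genes that share the same libraries and are a description.

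The same direction was seen over other genes. Over 67 other genes of macrophages and their relatives, rho with the wild type level was -0.65, and over 14227 protein-coding rows it was -0.55. The share of protein-coding rows listed at 0 in each WT-labelled library was 8.36% under 45% GC, 10.1% from 45% to 50%, 24.9% from 50% to 55% and 53.6% from 55% up. The median mean FPKM from 50% to 55% GC was 0.0281 in the WT-labelled libraries and 0.144 in the KO-labelled ones. Across 5539 tested genes rho between GC content and the difference was 0.34. With the GC and length trend removed, 27.1% of tested genes were called lower and 25.3% higher, against 3 and 0 of the 7 markers. Those 3 were Timd4 (-1.84, adjusted p = 0.00056), Adgre1 (-1.77, adjusted p = 0.00077) and Spp1. The part of base composition in the values of Clec4f, Csf1r and Cd68 was not tested.

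**Figure D4:**
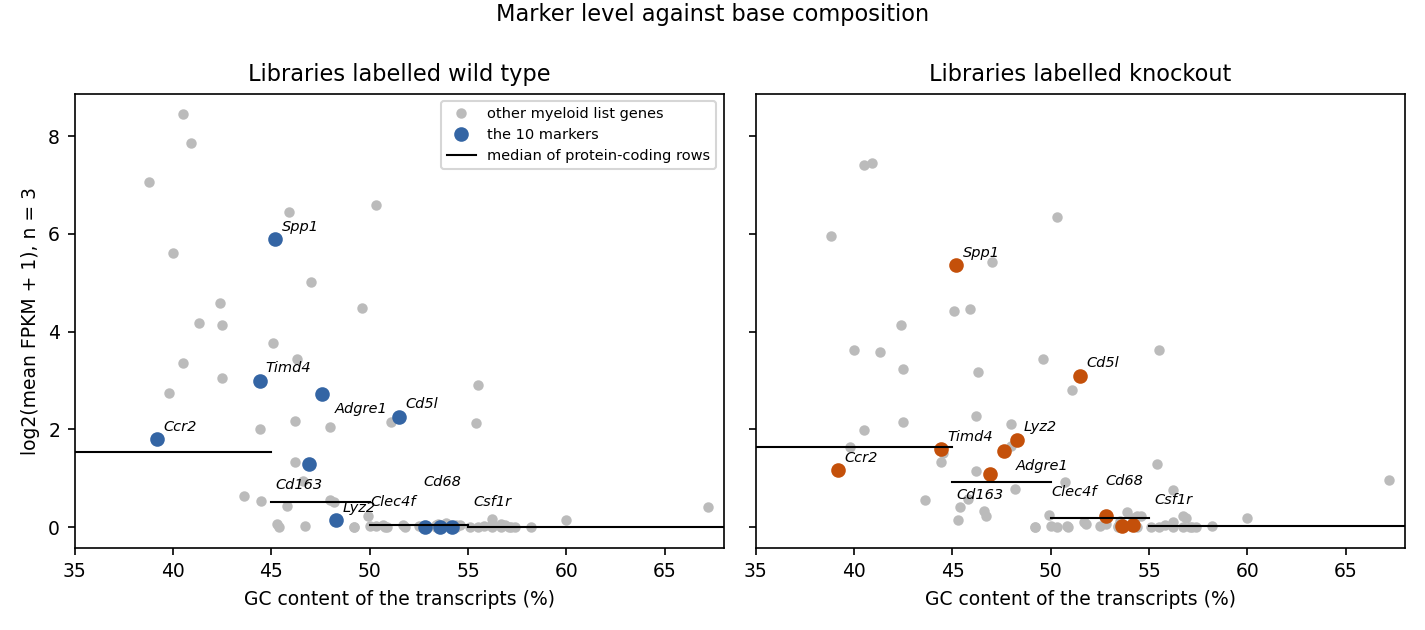
Mean level of each gene, as log2(mean FPKM + 1) over 3 libraries, against the GC content of its transcripts, for the 10 markers (coloured and named) and other genes of the myeloid lists (grey), with black lines at the median of protein-coding rows in each GC range. In the WT-labelled libraries Clec4f, Cd68 and Csf1r lie at 0 above 50% GC, where the median of protein-coding rows is also near 0.

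Other genes of Kupffer cells moved in both directions. Of 15 on that list 12 had a row and 7 were tested, of which 4 were lower, 1 was higher and 2 did not pass, with a median of -0.63 on the log2 scale. Clec1b fell from 5.70 ± 0.453 to 2.14 ± 0.680 FPKM (SD, n = 3; -1.12 on the log2 scale, limma adjusted p = 0.0022). Hpgd, which breaks down prostaglandins, fell from 349 ± 63.4 to 168 ± 30.2 FPKM (SD, n = 3; -1.05, limma adjusted p = 0.0044). Axl and Mertk are related receptors by which macrophages engulf dying cells, as TIM4 also does, and they went opposite ways. Axl fell from 3.37 ± 0.405 to 1.43 ± 0.422 FPKM (SD, n = 3; limma adjusted p = 0.0045), and Mertk rose from 0.476 ± 0.192 to 2.17 ± 0.595 FPKM (SD, n = 3; limma adjusted p = 0.0019). Mertk reached the filter through the KO-labelled libraries alone. Mrc1, the mannose receptor, named after its values were seen, was the other gene that fell (-0.63, limma adjusted p = 0.047), and it did not pass with the GC and length trend removed (-0.44, adjusted p = 0.17). Which cells of the liver gave the transcripts of this list, Hpgd and Mrc1 among them, was not tested. C1qb, a subunit of complement C1q that macrophages make in bulk, was listed at 0 in all 6 libraries, at 57.4% GC.

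Among 13 growth and transcription factors of macrophages 3 were tested, of which Maf and Zeb2 fell. Maf, whose product binds the TGCTGA half-site, was at 21.4 ± 4.18 and 9.93 ± 1.06 FPKM (SD, n = 3; -1.02 on the log2 scale, limma adjusted p = 0.0028). Zeb2, a zinc finger repressor that holds Kupffer cell identity, was at 3.52 ± 0.517 and 1.22 ± 0.0818 FPKM (SD, n = 3; -1.02, limma adjusted p = 0.001). Both kept their call with the GC and length trend removed (adjusted p = 0.0013 and 0.0012). Maf and Zeb2 are also expressed outside macrophages, in sinusoidal endothelium and stellate cells among others.

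Of 17 phagocyte membrane, adaptor and lysosome genes 8 were tested, of which 5 fell and 1 rose, with a median of -1.05. Of 8 more under the filter, 7 had a higher mean in the KO-labelled libraries and 0 a lower one. One of these, the lysosomal protease Lgmn, named after its values were seen, passed as higher in the fit without a filter (0.86 on the log2 scale, limma adjusted p = 0.017), with 6 reads against 205. Over all genes, rows listed above 0 numbered 13229 to 15000 in the WT-labelled libraries and 16385 to 18027 in the KO-labelled ones. The share of all genes under the filter with a higher mean was not computed. Cybb, the catalytic subunit of the phagocyte oxidase, was at 14.4, 14.9 and 20.8 FPKM in the WT-labelled libraries and at 2.65, 4.48 and 3.13 FPKM in the KO-labelled ones (-2.01 on the log2 scale, limma adjusted p = 0.00032). Cd53, a tetraspanin of leukocytes, fell from 47.9 ± 13.6 to 11.4 ± 3.31 FPKM (SD, n = 3; limma adjusted p = 0.00085). Ctss, cathepsin S of antigen-presenting cells, fell from 85.8 ± 18.6 to 21.2 ± 8.90 FPKM (SD, n = 3; limma adjusted p = 0.00089). Msr1 and Cd86, named after their values were seen, also fell (limma adjusted p = 0.0032 and 0.014). Lcp1, the leukocyte actin-bundling protein plastin, rose from 1.54 ± 0.0525 to 3.81 ± 0.468 FPKM (SD, n = 3; limma adjusted p = 0.0015).

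The remaining myeloid lists gave few tested genes. Of 17 monocyte and neutrophil genes 2 were tested. S100a8, a calcium-binding protein of neutrophils and monocytes, rose from 0.451 ± 0.279 to 1.87 ± 0.503 FPKM (SD, n = 3; limma adjusted p = 0.0042), and reached the filter through the KO-labelled libraries alone. With the GC and length trend removed its difference was 0.06 (adjusted p = 0.82). Of 12 lipid-associated macrophage genes 5 were tested, and 1 of them, Ctsb, the lysosomal protease cathepsin B, rose (0.71 on the log2 scale, limma adjusted p = 0.036), though not with that trend removed (0.30, adjusted p = 0.27). Of 13 inflammatory cytokine genes 2 were tested and both fell. Both reached the filter through the WT-labelled libraries alone, so their direction was fixed in advance. Of 9 under the filter 6 had a higher mean in the KO-labelled libraries and 1 a lower one. Il1rn, the interleukin 1 receptor antagonist, went from 5.21 ± 1.02 to 0.722 ± 0.334 FPKM and Cxcl10, an interferon-induced chemokine, from 1.95 ± 0.694 to 0.508 ± 0.0559 FPKM (SD, n = 3; limma adjusted p = 0.00032 and 0.0036). In the fit without a filter Cxcl16, a chemokine and scavenger receptor, rose from 0.110 ± 0.0457 to 1.48 ± 0.738 FPKM (SD, n = 3; limma adjusted p = 0.02), as did Il1b (limma adjusted p = 0.037), both named after their values were seen. Over the growth factor, Kupffer, monocyte, lipid-associated and phagocyte lists together, 25 of 74 genes were tested, of which 11 fell and 4 rose, with a median of -0.43 beside 0.12 over all tested genes. Of 42 of these genes with a row under the filter, 29 had a higher mean in the KO-labelled libraries and 8 a lower one. Whether the 25 tested genes stand for the lists as a whole was not tested. No share over all genes under the filter stands beside these counts. Without a filter 3171 of 20529 genes were called higher and 1045 lower. Those calls take in genes at every level, so they do not give the share at low level.

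Markers of other liver cells moved with the labels too. Of 12 hepatocyte genes 9 were tested and 8 rose, 2 of which, Ahsg and Serpina1a, reached the filter through the KO-labelled libraries alone. The list's summed FPKM ran from 1278 to 2068 in the WT-labelled libraries and from 4720 to 6389 in the KO-labelled ones. Cyp2e1, a hepatocyte cytochrome, rose from 143 ± 77.2 to 1177 ± 177 FPKM (SD, n = 3; limma adjusted p = 0.00032). All 4 tested stellate cell genes of 12, Reln, Dcn, Lum and Lrat, fell, while 7 of 8 under the filter had a higher mean in the KO-labelled libraries. The stellate cell sum went from a range of 88.9 to 167 FPKM to one of 26.5 to 40.2 FPKM. Of 13 sinusoidal endothelial genes 5 were tested and 4 fell, Lyve1, Cdh5, Oit3 and Kdr, with sums of 16.6 to 17.98 FPKM and 8.96 to 12.0 FPKM, and 4 of the 13, Pecam1 among them, were listed at 0 in each WT-labelled library. Cdh5 reached the filter through the WT-labelled libraries alone, so its direction was fixed in advance. All 8 sinusoidal genes under the filter had a higher mean in the KO-labelled libraries, and Dnase1l3, a secreted nuclease named after its values were seen, passed as higher without the filter (12 reads against 191, limma adjusted p = 0.02). The stellate and sinusoidal counts under the filter also have no share over all genes beside them. Among cholangiocyte genes, Sox9 rose (limma adjusted p = 0.019), though it did not pass with the GC and length trend removed (adjusted p = 0.52). The summed FPKM of the 10 macrophage markers was 68.9 to 91.5 in the WT-labelled libraries and 36.2 to 70.6 in the KO-labelled ones. The part of these cell types in the fall of Timd4, Adgre1 and Ccr2 was not tested.

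Dendritic, T, NK, B and plasma cell genes gave few values above the filter, and none of those tested passed on the deposited scale. Of 11 dendritic cell genes 1 was tested, Clec9a, at 1.85 ± 0.452 and 1.21 ± 0.356 FPKM (SD, n = 3; limma adjusted p = 0.13), which passed as lower with the GC and length trend removed (-0.63, adjusted p = 0.015). Without the filter H2-Ab1, listed at 0 in each WT-labelled library and covered by 10 reads in all, passed as higher (limma adjusted p = 0.047). None of 14 T and NK cell genes passed the filter, and the list's sum was 2.16 to 3.19 FPKM and 2.04 to 3.58 FPKM. Jchain of plasma cells and Ms4a1 of B cells did not pass (limma adjusted p = 0.72 and 0.76), and Ms4a1 stood at 5.98 FPKM in knockout replicate 3 against 0.606 and 0.372 FPKM in the others of its group. Of 12 kidney tubule genes only Kap was tested. Without knockout replicate 1, which held most of its reads, the same 3 markers were called lower and Lyz2 higher. Kap still split the labels there, with 117 and 108 reads in knockout replicates 2 and 3 against 2 in the WT-labelled libraries.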

How the data were processed

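FPKM values per gene were deposited by the authors, 1 table for each of 6 libraries, per the file headers. HISAT2 and GRCm39 are named in the submitters' processing notes, and for the counting tool, annotation and use of strand the answer is not given in the sources used here. In knockout replicate 3 the header's sample code differed from the label, and the label was used. The identifier and symbol agreed in 0 rows. FPKM times GENCODE M21 (GRCm38) exon length by symbol gave whole reads, within 0.15 read, for 98.95% of 43462 low values, against 36.03% in 1787 rows of the chromosome 1 block and 30% by chance. Symbols were used, and that block and 127 rows with no symbol were left out. GC content came from the same annotation. The fit was made with limma 3.58.1 (R 4.3.3) on log2(FPKM + 1), with trend and robust moderation and labelled genotype as the only term, and was tested on simulated data. Differences on this scale understate the change of low genes. The GC and length trend was a loess fit per library, possible for 97.64% of tested genes. From each list beside the 10 markers, up to 4 genes with the smallest adjusted p past the threshold were named, or else up to 2 with the highest mean. A gene that this rule names is not reported here. The markers, lists and settings were chosen with earlier results of these data known. Alternatives were other pseudocounts, filters, thresholds and scalings, trend removal, plain moderation, a replicate block and leaving out each library.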

Additional observations from a re-analysis of the deposited data

How the results depend on the processing

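The count of 3 markers lower became 0 with a filter of 10 FPKM in 3 libraries, under which Timd4, Adgre1 and Ccr2 were not tested, and ran from 2 to 3 when each library was left out. The count of 1 marker higher became 0 with FPKM rescaled outside mitochondrial transcripts (where Lyz2 was not tested), with the GC and length trend removed, with the 10 FPKM filter and at an adjusted p under 0.01, and ran from 0 to 1 with each library left out. Of the genes on the 5 other myeloid lists, 4 were higher in the report and 2 with quantile normalization, with the mitochondrial rescaling and with the trend removed, namely Mertk and Lcp1. With the 10 FPKM filter 0 were higher and 6 lower, against 11 lower as reported. Differences that did not pass in the report changed sign under some settings. With the trend removed they were -0.05 for Clec4f (adjusted p = 0.69), -0.13 for Cd5l (0.82), -0.12 for Csf1r (0.021) and -0.20 for Cd68 (0.0018). With median centring they were -0.08 for Csf1r (0.08) and -0.10 for Cd68 (0.0066). With each library left out, the difference of Cd163 ran from -0.39 (without wild type replicate 3) to 0.24 (without wild type replicate 1), and with quantile normalization it was -0.55 (adjusted p = 0.094). The cause was not tested. The lower calls of Csf1r and Cd68 rest on 22 and 2 reads in all, none of them in a WT-labelled library, so the direction comes from the scaling applied to values at 0. For Clec4f, Csf1r and Cd68, listed at 0 in each WT-labelled library, a fitted value moves with the pseudocount, and Clec4f passed at 0.01 (3.43, adjusted p = 0.035). The deviations of libraries with the same replicate number had correlations of -0.0488, -0.0964 and 0.181, and those of other pairs ran from -0.347 to 0.345. With 3 libraries in each group, these values cannot show whether equal numbers share anything more. With the replicate block 1740 genes were higher and 1031 lower, and the block left 3 markers lower and 1 higher. Depth limits the low markers, since 1 read on a transcript of 1 kb is worth 0.0206 to 0.0489 FPKM.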

Other observations

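Adgre4, which encodes a close relative of F4/80 on macrophages, was looked up after the values of Adgre1 were seen. It was listed at 14.3, 15.6 and 21.6 FPKM in the WT-labelled libraries and at 2.31, 3.72 and 0.911 FPKM in the KO-labelled ones. Its difference was -2.53 on the log2 scale (SE 0.33, limma adjusted p = 0.00061), and -2.20 (adjusted p = 0.0014) with the trend on GC content and length removed. Knockout replicate 3 was the lowest library for Adgre4 as for Adgre1.

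Il1b, the cytokine that the product of Il1rn blocks, was under the filter and was also looked up after values were seen. It was listed at 0.0728, 0 and 0.0513 FPKM in the WT-labelled libraries, from 7 reads in all, and at 2.99, 2.76 and 0.530 FPKM in the KO-labelled ones, from 375 reads. In the fit without a filter its difference was 1.45 on the log2 scale (SE 0.36, limma adjusted p = 0.037), while Il1rn, Cybb, Cd53 and Ctss fell in the filtered fit. Of these, Il1rn reached the filter through the WT-labelled libraries alone.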
